A study of Homo sapiens with 31 samples.

Results

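The genes described here were 45 transcription factors, nuclear receptors and nuclear receptor coregulators of the liver, chosen by symbol, and the measurement was the miRNA found ligated to their RNA in the human hepatoma line Huh-7.5. All entries under these symbols in the deposited table of miRNA interactions were taken. The table listed 254 interactions, built from 287 chimeric reads, at 33 of the 45 genes, out of 32712 interactions and 35811 reads in all. The other 12 genes had none.

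Argonaute (AGO) proteins hold miRNAs and pair them with target RNA. In AGO-CLIP, ultraviolet light cross-links AGO to RNA and the purified RNA is sequenced, and a miRNA that has been joined to the fragment beside it is read as a chimera. The table held chimeras with the miRNA in front, so the first nucleotide of a target region usually marks the ligation point. It pooled 31 libraries of Huh-7.5, which is a single established line. Of these, 19 were standard AGO-CLIP libraries: 7 of untreated cells, 4 mock, 4 given LNA-122 and 4 given miravirsen, which are antisense inhibitors of miR-122. The paper lists T4 RNA ligase and low RNAse A for these standard libraries. It proposes that the ligase used there to add the 3′ linker can form chimeras. The other 12 were CLEAR-CLIP libraries, 2 with T4 RNA ligase and low RNAse A and 10 without added ligase. Those 10 were 2 with no change to HSPC117, an RNA ligase of the cell, and 2 with siRNA against it, at low RNAse A, and 6 with HSPC117 over-expression, 2 each with low RNAse A, high RNAse A and RNAse T1. No entry named its library. Libraries and treatments could therefore not be compared, no replicate error exists, and the intervals below are 95% Wilson intervals that cover counting error only. Differences between the listed genes and the whole table were not tested.

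Nuclear receptors are transcription factors whose activity is set by small lipophilic ligands such as thyroid hormone, bile acids, oxysterols, fatty acids and retinoids. Many bind DNA as heterodimers with the retinoid X receptors. They recruit coactivators of the NCOA family or corepressors such as NCOR1, and in hepatocytes they act beside HNF4A, the FOXA and C/EBP proteins, the ONECUT factors and PROX1 to set the hepatic gene programme. A miRNA recognises most targets through its seed, the bases 2 to 8 from its 5′ end, and added pairing toward its 3′ end is called auxiliary. A match was called canonical when it was an 8mer, 7mer-m8, 7mer-A1, 6mer or offset 6mer.

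The seed families that recur in the results are given first, and their mature miRNAs are shown because members of a family share the bases in capitals (the seed) and differ mainly toward the 3′ end. The sequences are from RefSeq (GRCh38.p14). The first family was ligated at 14 of the 45 genes and the next at 13.
miR-17-5p: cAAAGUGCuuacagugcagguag
miR-20a-5p: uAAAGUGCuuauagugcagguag
miR-93-5p: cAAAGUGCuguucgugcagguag
miR-106b-5p: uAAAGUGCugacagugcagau
miR-92a-3p: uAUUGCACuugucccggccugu
miR-92b-3p: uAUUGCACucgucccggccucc
miR-25-3p: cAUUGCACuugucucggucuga
miR-16-5p: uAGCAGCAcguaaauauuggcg
miR-15b-5p: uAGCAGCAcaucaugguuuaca
miR-1269a: cUGGACUGagccgugcuacugg
miR-1269b: cUGGACUGagccaugcuacugg

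The next miRNAs are shown because single interactions described below rest on them, again with the seed in capitals. Of these, miR-18a-5p differs from miR-17-5p within the seed and stands in a family of its own.
miR-18a-5p: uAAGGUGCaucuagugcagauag
miR-26a-5p: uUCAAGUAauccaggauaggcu
miR-21-5p: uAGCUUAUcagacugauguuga
miR-19a-3p: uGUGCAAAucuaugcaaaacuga
miR-181a-5p: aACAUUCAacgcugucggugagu
miR-194-5p: uGUAACAGcaacuccaugugga
miR-423-5p: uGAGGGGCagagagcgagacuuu
miR-296-3p: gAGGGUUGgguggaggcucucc

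The interactions were spread unevenly over the genes. At least 1 interaction was listed for 73.3% of them (59 to 84.0), against 33.2% of the 20056 protein-coding genes of RefSeq, a background that holds genes of every tissue. THRB, PROX1 and NCOA2 together held 102 of the 254, or 40.2%. THRB had 49, and only 9 of the 7069 genes in the table had more, with 1 other gene level with it. Of the 33 genes with an interaction, 17 had 5 or more (51.5%, 35.2 to 67.5), against 17.5% of the genes in the table, and the median was 5 against 2. The genes were chosen with earlier results of these data known. These comparisons may therefore partly follow from the choice, and the intervals do not cover that. The 16 remaining genes had 1 to 3 each. Because the table pools cells of 1 line and carries no RNA level, a gene with many interactions cannot be told apart from one whose RNA is abundant or long.

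**Figure D1:**
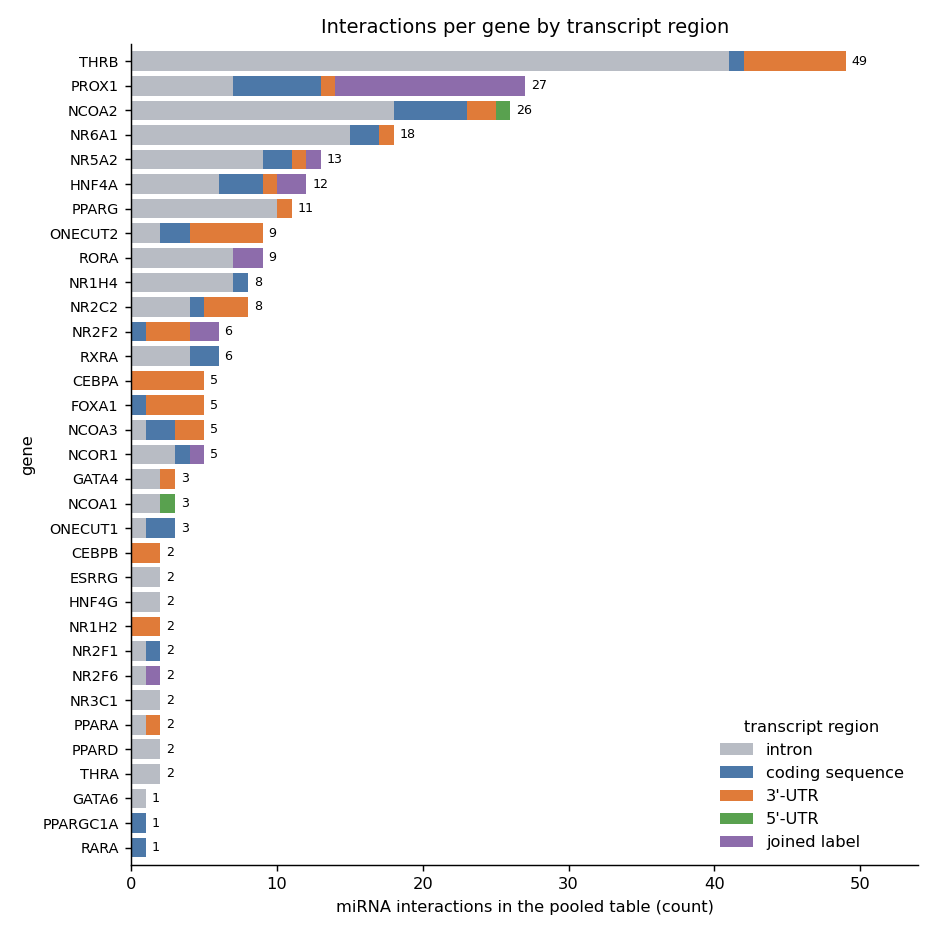
Interactions in the pooled table (x axis, count) for the 33 genes with at least 1 (y axis), stacked by transcript region; the number after each bar is the total. THRB stands at 49, of which 41 are in introns, while all 5 of CEBPA and 4 of 5 of FOXA1 lie in the 3′-UTR.

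Most of the interactions fell in introns, which are present in unspliced RNA. Introns held 153 of the 254 (60.2%, 54.1 to 66.1), against 39.2% of all interactions and 55.7% of the interactions with a gene symbol. The 3′-UTR, where most studied miRNA sites lie, held 42 (16.5%, 12.5 to 21.6), against 12.0% and 17.7%. Coding sequence held 35 (13.8%, 10.1 to 18.6), against 12.4% and 18.3%. The whole table also holds interactions outside genes, so the figures for interactions with a gene symbol are the closer background for regions. A joined label, such as 3′-UTR or intron for overlapping transcripts, was given to 22, and the 5′-UTR held 2. All 254 regions spanned 75 nt between the listed start and end, and the 194 at genes whose strand RefSeq gave all lay on that strand. Coordinates below are hg18 as listed, and the sources used here do not say whether they count from 0 or from 1.

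Thyroid hormone, bile acid, oxysterol and xenobiotic receptors held 61 interactions at 4 of 7 genes. Of the 61, 13 were canonical (21.3%, 12.9 to 33.1), an interval that holds the 30.4% of all interactions and the 33.0% of those with a gene symbol. THRB, the main thyroid hormone receptor of the liver, had 53 reads from 32 miRNAs, strung over 373 kb of chromosome 3. Introns took 41 of its 49 interactions, and 9 of those 41 had a canonical match, against 30.5% of all intron interactions. The other 8, of which 7 were in the 3′-UTR and 1 in coding sequence, lay within 4.60 kb at the 3′ end of the gene, from 24134940 to 24139544. The miR-17-5p family accounted for 9 of the 49 and miR-26a-5p for 4, and over all interactions their shares were 12.5% and 4.17%. Canonical matches made up 10 of the 49 (20.4%), against 30.4% of all interactions and 33.0% of those with a gene symbol.

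Only 4 interactions at THRB had more than 1 read in a region or shared a seed match start with another miRNA. In the 3′-UTR, miR-21-5p had 2 reads with a 7mer-m8 at chromosome 3 from 24135672 to 24135747. In an intron, miR-320a had 3 reads with a 6mer, from 24489504 to 24489579. In a further intron, miR-93-5p with 2 reads and miR-20a-5p with 1 met the same 6mer, with regions from 24233923 to 24233998 and from 24233920 to 24233995. The predicted duplexes of miR-21-5p, miR-93-5p and miR-20a-5p are shown with the paired bases of the miRNA in capitals, G:U pairs included, and with all 7 seed bases paired in each.
THRB 3′-UTR, miR-21-5p: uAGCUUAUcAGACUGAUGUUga
THRB intron, miR-93-5p: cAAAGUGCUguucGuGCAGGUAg
THRB intron, miR-20a-5p: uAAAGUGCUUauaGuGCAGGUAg

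THRA, the other thyroid hormone receptor gene, had 2 intron interactions, of miR-1307-3p and miR-93-5p, whose regions overlapped almost entirely on chromosome 17. NR1H4, the bile acid receptor FXR, had 8 interactions and 10 reads, 7 in introns and 1 in coding sequence, and only 1 of the 8, of miR-500a-5p, had a canonical match. Of its 8 duplexes 4 were of class 4, a count shared with PPARG and below the 5 of THRB. Class 4 is the group of predicted duplexes with little seed pairing: at the listed genes its duplexes paired 2.12 ± 1.67 of the 7 seed bases (SD, n = 25), against 5.81 ± 1.06 in the other classes (SD, n = 229). The interaction of NR1H4 with the most reads was of this kind, with miR-21-5p in 3 reads on chromosome 12 from 99462167 to 99462242. The paired bases, in capitals, all lay outside the seed, which differs from the seed-paired miR-21-5p duplex at THRB.
NR1H4 intron, miR-21-5p: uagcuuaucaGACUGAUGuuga

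NR1H2, the oxysterol receptor LXRβ, had 2 interactions in its 3′-UTR on chromosome 19, where the end of the miR-320a region overlapped the start of the miR-18a-5p region. The miR-320a duplex had the lowest predicted free energy of this group, −34.1 on the RNAhybrid scale, whose unit the file does not name, with an offset 6mer. The miR-18a-5p region, from 55577933 to 55578008, held a 7mer-m8. The oxysterol receptor NR1H3 and the xenobiotic receptors NR1I2 (PXR) and NR1I3 (CAR) had no interaction.

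The orphan and small heterodimer receptors held 60 interactions at 8 of 11 genes, 25 of them canonical (41.7%, 30.1 to 54.3). That interval holds the 30.4% of all interactions and the 33.0% of those with a gene symbol. NR6A1, the germ cell nuclear factor, had 18 interactions from 15 miRNAs, 15 in introns, over 239 kb. Its only 3′-UTR interaction was an 8mer of miR-181a-5p, at chromosome 9 from 126324552 to 126324627 with a free energy of −29.7, and miR-181a-5p was also ligated in one of its introns. In coding sequence, miR-4455 had 2 reads with a mismatched offset 6mer. NR5A2 (LRH-1), which drives bile acid and cholesterol genes, had 13 interactions, each of a different miRNA, with 5 canonical matches. One was an 8mer of miR-18a-5p in coding sequence, on chromosome 1 from 198283852 to 198283927. The pairing of these 8mers is shown with paired bases in capitals.
NR6A1 3′-UTR, miR-181a-5p: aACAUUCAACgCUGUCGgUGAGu
NR5A2 coding sequence, miR-18a-5p: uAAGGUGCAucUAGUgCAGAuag

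NR2C2 (TR4), an orphan receptor that binds direct repeats, had 8 interactions and 10 reads. Its 3′-UTR held a single place with 3 miRNAs of the miR-17-5p family on chromosome 3: miR-17-5p with 3 reads from 15059906 to 15059981, miR-93-5p with 1 from 15059924 to 15059999 and miR-20a-5p with 1 from 15059926 to 15060001. Counted from each region's own first nucleotide, the 7mer-m8 began at positions 28, 10 and 8, which is the same nucleotide, 15059934, in all 3. The predicted duplexes left the first seed base unpaired and paired the next 6, and they shared a paired stretch toward the 3′ end.
NR2C2 3′-UTR, miR-17-5p: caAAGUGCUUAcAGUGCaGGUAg
NR2C2 3′-UTR, miR-93-5p: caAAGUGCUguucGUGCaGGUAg
NR2C2 3′-UTR, miR-20a-5p: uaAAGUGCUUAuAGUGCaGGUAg

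NR2F2 (COUP-TFII) had 6 interactions, none with an intron label alone, and 4 of the 6 were canonical. Its 3′-UTR on chromosome 15 also held a shared start, where miR-106b-5p and miR-17-5p, 1 read each, met the same offset 6mer from regions that began 8 nt apart. RORA, a receptor of the clock and of lipid metabolism, had 9 interactions of 9 miRNAs over 564 kb, and 2 of them were 8mers, of miR-106b-5p in an intron and of miR-19a-3p at a place labelled 3′-UTR and intron. NR2F1 (COUP-TFI) had 2 interactions, and its coding sequence duplex with miR-296-3p had the lowest free energy at any of the 45 genes, −39.1, with an offset 6mer and 20 of 22 bases paired.
NR2F1 coding sequence, miR-296-3p: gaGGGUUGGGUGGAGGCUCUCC

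NR2F6 (EAR2) and ESRRG, an oestrogen-related receptor, had 2 interactions each. Those of ESRRG were in introns and included a 7mer-m8 of miR-18a-5p, and one of NR2F6 was a 7mer-m8 of miR-16-5p at a place labelled coding sequence and 3′-UTR. NR0B2 (SHP), the small heterodimer partner induced by bile acids, NR2C1 (TR2) and ESRRA had none. Of the steroid and vitamin D receptors, NR3C1, the glucocorticoid receptor, had 2 intron interactions. One was a 7mer-m8 of miR-340-5p with a free energy of −21.5, and the other was a bulged match of miR-103a-3p. NR3C2, the mineralocorticoid receptor, and VDR had none.

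Fatty acid and retinoid receptors held 22 interactions at 5 of 7 genes, and 3 of the 22 were canonical (13.6%, 4.75 to 33.3), an interval that holds the 30.4% of all interactions and the 33.0% of those with a gene symbol. PPARG, which drives lipid storage genes, had 11, of which 10 were in introns. Its only 3′-UTR interaction was an 8mer of miR-130a-3p with 1 read, at chromosome 3 from 12450668 to 12450743. The other canonical match at PPARG was an intron 8mer of miR-186-5p, and 4 of its 11 duplexes were of class 4. RXRA, the common heterodimer partner, had 6 interactions, 4 in introns and 2 in coding sequence. The coding sequence regions, of miR-19a-3p and miR-210, overlapped on chromosome 9 from 136465825 to 136465908, both with mismatched seeds.

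PPARA, the fatty acid receptor of the fasting liver, and PPARD had 2 interactions each, none canonical. RARA had 1, a bulged match of miR-92a-3p in coding sequence with the lowest free energy of this group, −28.1. RXRB and RARB had none.

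Hepatocyte transcription factors held 69 interactions and 92 reads at 10 of 12 genes, and 24 of the 69 were canonical (34.8%, 24.6 to 46.6). Both background shares, 30.4% and 33.0%, lie within this interval. Of the 69, 21 were in introns, 19 in the 3′-UTR and 14 in coding sequence, and 15 carried a joined label, 13 of those at PROX1. The group held the interactions with the most reads. CEBPA, which maintains the differentiated hepatocyte and is a gene without introns, had 5 interactions and 13 reads, all in the 3′-UTR within 0.779 kb of chromosome 19. The reads were dominated by miR-1269a, with 9 at a 7mer-m8 from 38483163 to 38483238, the highest count at any of the 45 genes. Its relative miR-1269b had 1 read from 38483142 to 38483217, and both regions put the 7mer-m8 at 38483199.
CEBPA 3′-UTR, miR-1269a: cUGGACUGAgcCGUGCUaCUGG
CEBPA 3′-UTR, miR-1269b: cUGGACUGAgccaUGCUaCUGg

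In these duplexes the 7 seed bases were paired for each miRNA, and miR-1269a had 18 paired bases in all against 15. Reads that fit several miRNAs were given by the authors to a random member. The split of reads between these near-identical miRNAs is therefore uncertain. A further place in the same 3′-UTR held overlapping regions of miR-25-3p, with a 7mer-m8, and miR-103a-3p, with a bulged 7mer-m8. CEBPB, the related factor of the acute phase response, had 2 interactions, also in the 3′-UTR. Its miR-423-5p interaction had 2 reads with a 7mer-m8 on chromosome 20 from 48242239 to 48242314, and its free energy of −35.3 was the lowest of this group. The neighbouring region was of miR-92a-3p with a 6mer, and the regions overlapped by their ends.
CEBPB 3′-UTR, miR-423-5p: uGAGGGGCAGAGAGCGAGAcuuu

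FOXA1, a pioneer factor of liver enhancers, had 5 interactions and 7 reads, 4 in the 3′-UTR on chromosome 14 and 1 in coding sequence. There miR-194-5p had 2 reads with a 7mer-m8, from 37130118 to 37130193. A bulged 8mer was shared by miR-92a-3p with 2 reads, from 37129818 to 37129893, and miR-92b-3p with 1, from 37129828 to 37129903. A second interaction of miR-92a-3p, in coding sequence, had a 7mer-A1. The shared bulged match is printed with paired bases in capitals. All 7 seed bases were paired in the prediction, in which pairing at some seed positions was forced for bulged matches.
FOXA1 3′-UTR, miR-92a-3p: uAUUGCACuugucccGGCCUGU
FOXA1 3′-UTR, miR-92b-3p: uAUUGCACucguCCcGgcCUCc

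PROX1, a corepressor of LRH-1 and HNF4A and, in mouse, a factor of hepatoblast migration, had 27 interactions and 37 reads on chromosome 1. Of the 27, 14 interactions of 14 miRNAs lay within 5.46 kb from 212275773 to 212281238, over the end of the coding sequence and the 3′-UTR, and 13 of them carried a joined label. Each of these had 1 read, and the PROX1 interactions with more than 1 read lay in an intron. There, miR-17-5p had 7 reads from 212243597 to 212243672, miR-20a-5p had 5 from 212243572 to 212243647 and miR-106b-5p had 1 from 212243608 to 212243683. These 13 reads met a match of only 5 bases, not canonical, at the same nucleotide, 212243637, from regions that began up to 36 nt apart. A miR-15a-5p region with 1 read and no seed match overlapped them. The predicted duplexes paired 4 or 5 seed bases and had the paired stretch from position 13 to position 19 in common.
PROX1 intron, miR-17-5p: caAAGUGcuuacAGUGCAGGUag
PROX1 intron, miR-20a-5p: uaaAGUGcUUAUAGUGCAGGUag
PROX1 intron, miR-106b-5p: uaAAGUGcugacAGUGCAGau

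HNF4A, the master regulator of hepatocyte identity, had 12 interactions of 12 miRNAs, 6 of them in introns and 3 in coding sequence. The one with the most reads, miR-320a with 3 in coding sequence on chromosome 20 from 42490462 to 42490537, had no seed match or variant and was of class 4. A 7mer-m8 of miR-16-5p lay in another part of the coding sequence. ONECUT2 had 9 interactions, 5 in the 3′-UTR, and its 2 canonical matches, an 8mer of miR-365a-3p and a 7mer-m8 of miR-19a-3p, were in an intron and in coding sequence. ONECUT1 (HNF6) had 3, none canonical. GATA4 had 3, HNF4G 2 and GATA6 1, and GATA4 held an intron 8mer of miR-27a-3p. FOXA2 and FOXA3 had none.

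Coregulators held 40 interactions, with at least 1 at each of the 5 genes, and 15 were canonical (37.5%, 24.2 to 53.0). Here too the interval holds the background shares of 30.4% and 33.0%. NCOA2 (SRC-2), a coactivator of hepatic glucose and bile acid genes, had 26 from 20 miRNAs, 18 of them in introns and 5 in coding sequence, with 10 canonical matches. Its miR-92a-3p interaction with 2 reads was an intron offset 6mer with a free energy of −29.3, the lowest of this group. NCOA3 (SRC-3) had 5 interactions, and its 3′-UTR held 1 each of miR-17-5p, a 7mer-m8 on chromosome 20 from 45716843 to 45716918, and miR-106b-5p, a mismatched 7mer-A1 more than a region's length upstream. NCOR1, the corepressor of unliganded receptors, had 5, of which 3 were canonical, among them a 7mer-A1 of miR-1269a in coding sequence. NCOA1 (SRC-1) had 3 and PPARGC1A (PGC-1α), the coactivator of gluconeogenesis, had 1.
NCOA3 3′-UTR, miR-17-5p: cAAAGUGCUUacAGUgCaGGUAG

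A count of 0, as at the 12 genes without an interaction, allows up to 3 interactions, or 0.00917% of the table, and does not show that a gene had no miRNA site. Further genes of these families were counted the same way, to be read beside the 33.2% of protein-coding genes with at least 1 interaction. Of 18 further human nuclear receptors, 4 had an interaction, 7 in all, led by NR4A2 with 3. Of 15 further coregulators 14 had one, 76 in all, led by TBL1XR1 with 27 and TBL1X with 15, which are subunits of the NCOR1 corepressor complex. Of 16 further liver transcription factors 12 had one, 38 in all, led by TCF7L2 with 11 and FOXO1 with 8. Markers of cell types were counted too. All 10 of 10 hepatocyte markers had interactions, 176 in all, with AFP at 57, ALB at 33 and a median of 6. SYT1, with 6, and MAP2, with 1, were the neuron markers listed of 7 (28.6%), a share near the 33.2%. None of 6 blood and 6 stellate, fibroblast and endothelial markers was listed. These counts alone do not establish the identity of the line.

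Over all 45 genes, 81 of the 254 interactions had a canonical seed match (31.9%, 26.5 to 37.9), against 30.4% of all interactions and 33.0% of those with a gene symbol. The share at these genes thus lay near the background. No seed match or variant was found in 32 (12.6%, 9.07 to 17.2), against 15.1% of all and 13.4% of those with a gene symbol. Among the canonical matches, 7mer-m8 was the commonest, with 30 (11.8%, 8.40 to 16.4), against 7.57% and 8.39%. The 8mers were 11 (4.33%, 2.44 to 7.59), against 6.72% and 7.48%. The 11 8mers lay at 8 genes, with 7 in introns, 2 in the 3′-UTR, 1 in coding sequence and 1 at a joined label. In THRB, the intron 8mers were of miR-26a-5p and miR-18a-5p, and in PROX1 of miR-15b-5p.

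The canonical share was also read by region. In the 3′-UTR of the listed genes 20 of 42 interactions were canonical (47.6%, 33.4 to 62.3), in coding sequence 13 of 35 (37.1%, 23.2 to 53.7) and in introns 38 of 153 (24.8%, 18.7 to 32.2). The same order held in the whole table, at 41.8%, 32.0% and 30.5%. The 2 strongest types, 8mer and 7mer-m8, made up 13 of the 42 in the 3′-UTR and 17 of the 153 in introns. Those 13 lay at 9 genes: CEBPA with 3, NR2C2 with 3, and CEBPB, FOXA1, NCOA3, NR1H2, NR6A1, PPARG and THRB with 1 each.

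**Figure D2:**
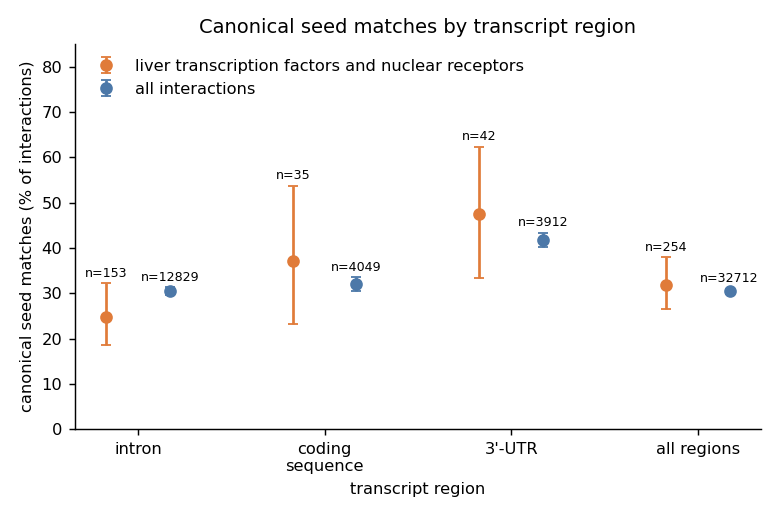
Share of interactions with a canonical seed match (y axis, %) by transcript region (x axis), at the 45 listed genes and in the whole table; bars are 95% Wilson intervals and n is the number of interactions. Among the listed genes the share falls from 47.6% in the 3′-UTR to 24.8% in introns.

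Canonical matches lay toward the ligation point. In the listed genes 62 of 81 (76.5%, 66.2 to 84.4) began in the first 37 of the 75 positions, against 82.8% in the whole table and 53.4% for an even placement. Their median start was position 23, against 22. The mismatched matches at these genes were closer to even, with 42 of 71 in the first 37 positions (59.2%, 47.5 to 69.8), and so were the bulged ones, with 32 of 53 (60.4%, 46.9 to 72.4). The whole table had nearly the same shares, 59.6% for mismatched and 59.2% for bulged matches. The even share was computed from the lengths of the canonical matches at the listed genes.

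Predicted pairing along the miRNA had a similar outline at these genes and in the table, except in the centre. It was highest at position 4, with 88.6% paired (84.1 to 91.9) against 84.5%, and high again from position 14 to position 20. Between these stretches it was lowest at position 11 at the listed genes, with 49.2% (43.1 to 55.3) against 58.2% in the whole table. The whole table had no dip there, with 58.0% at position 9 and 58.1% at position 10. The seed had 5.45 ± 1.58 paired bases of 7 and the bases from position 9 onward 8.74 ± 2.53 (SD over 254 interactions), against 5.28 ± 1.66 and 8.83 ± 2.54. Per the methods, seed pairing was forced where a seed match or variant was found, so the seed values partly follow from the match. Class 4 took 25 of 254 (9.84%, 6.76 to 14.1), against 11.3%, and class 6, with 11.2 ± 1.40 paired bases from position 9 onward, held 56 (22%, 17.4 to 27.5), against 19.7%, and was the most frequent class in both.

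**Figure D3:**
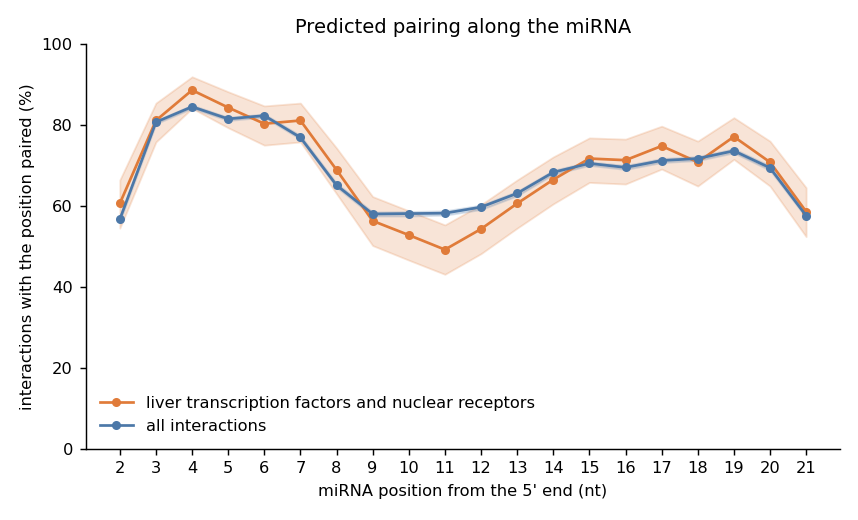
Share of interactions with each miRNA position predicted to pair (y axis, %) against the position from the 5′ end of the miRNA (x axis, nt), at the 45 listed genes and in the whole table; bands are 95% Wilson intervals. Both lines peak at position 4, at 88.6% and 84.5%, and the listed genes dip to 49.2% at position 11.

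The 10 miRNAs most frequent at these genes made up 109 of the 254 interactions (42.9%), and the same 10 made up 41.7% of the table. The order began with miR-17-5p (17 interactions), then miR-320a (16), miR-92a-3p (15) and miR-26a-5p (12), followed by miR-16-5p and miR-27a-3p with 9 each, miR-18a-5p, miR-194-5p and miR-19a-3p with 8 each, and miR-186-5p with 7. The intervals of neighbours in that order overlapped. Most were also spread over genes: miR-17-5p, miR-320a and miR-92a-3p each reached 11 of the 45, and the 9 interactions of miR-27a-3p were at 9 genes. The share of miR-17-5p was 6.69% (4.22 to 10.5) against 7.58% in the table.

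miR-18a-5p had 3.15% (1.60 to 6.09) against 1.77%, and 6 of its 8 interactions were canonical (75%, 40.9 to 92.9), against 41.6% of all its interactions. For miR-19a-3p the canonical count was 4 of 8 (50.0%, 21.5 to 78.5) against 14.4%, and for miR-27a-3p it was 1 of 9 (11.1%, 1.99 to 43.5) against 25%. With so few interactions these shares have wide intervals. miR-122-5p, the dominant miRNA of hepatocytes and the one inhibited in 8 of the 31 libraries, had 6 interactions: 3 at NCOA2 and 1 each at HNF4G, RORA and THRB. None of the 6 was canonical, for which the upper Wilson bound was 39%, while 47.0% of its interactions in the whole data set were. The paper lists more chimeras for the LNA-122 and for the miravirsen libraries than for the mock libraries. The inhibited libraries thus weigh more in the pool than their number implies, and the effect of inhibition on these counts was not tested. As a family, miR-17-5p, miR-20a-5p, miR-93-5p and miR-106b-5p had 32 interactions at 14 genes (12.6%, 9.07 to 17.2) against 12.5%, and the miR-92a-3p family had 20 at 13 genes (7.87%, 5.15 to 11.8) against 5.82%.

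**Figure D4:**
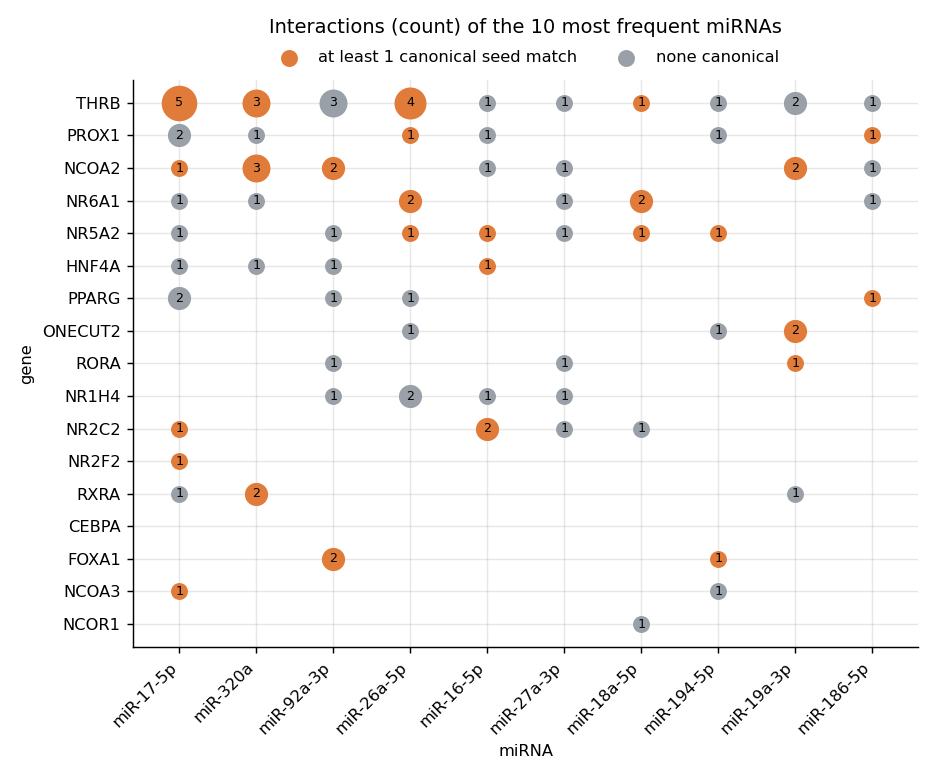
Interactions (number in each circle, with area in proportion) of the 10 most frequent miRNAs (x axis) at the 17 genes with at least 5 interactions (y axis); orange marks a cell with at least 1 canonical seed match. THRB met all 10 of these miRNAs, with 5 interactions of miR-17-5p, and CEBPA met none of them.

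Most of the interactions rested on a single read. Only 14 of 254 had 2 or more reads (5.51%, 3.31 to 9.04), against 5.00% of the table, and 7 of these had 3 or more. They were at 10 genes: CEBPA, PROX1, NR2C2, HNF4A, NR1H4, THRB, CEBPB, FOXA1, NCOA2 and NR6A1. Of the 14, 8 were canonical (57.1%, 32.6 to 78.6), against 46.7% of the interactions with 2 or more reads in the whole table. Among those of them with a gene symbol the share was 53.5%.

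Regions of different miRNAs overlapped at 16 places with 36 interactions (14.2%, 10.4 to 19.0, against 12.9% of the table). At 6 of these places, at CEBPA, FOXA1, NR2C2, NR2F2, PROX1 and THRB, 14 interactions shared the nucleotide at which the seed match began (5.51%, 3.31 to 9.04, against 3.06%). The miRNAs that shared a start belonged in each case to 1 seed family. This largely follows from meeting the same type of match at the same nucleotide. Their regions began 3 to 36 nt apart. A read that could be assigned to several miRNAs, which are mostly of 1 family, was given by the authors to one of them at random, so which member was ligated is less certain than the place. At the other 10 places the miRNAs met different starts or had no seed match, as for miR-191-5p and miR-210, which were 1 nt apart at the 3′ end of PROX1.

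**Figure D5:**
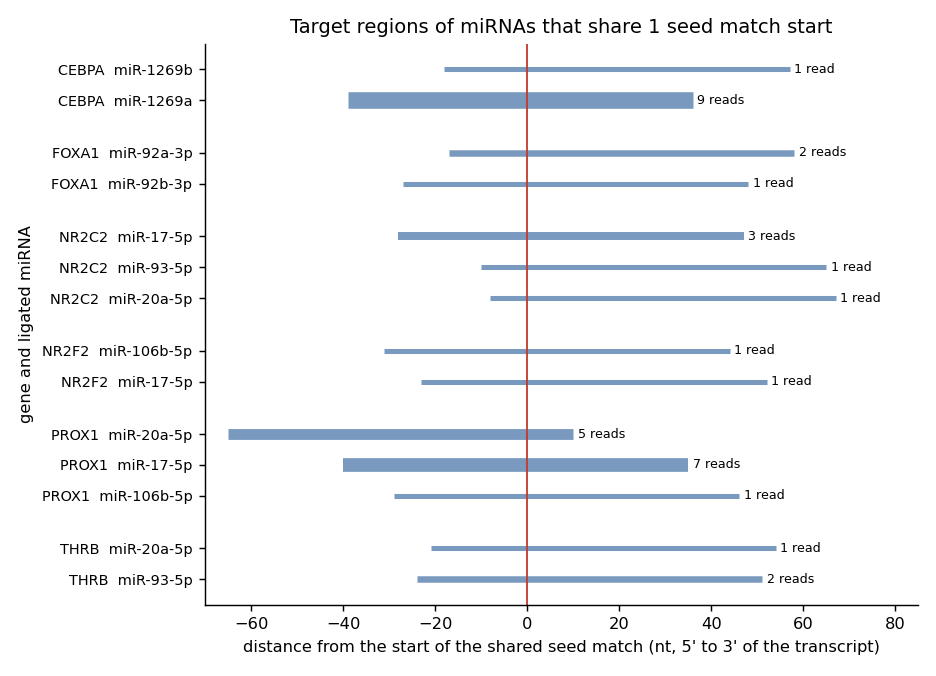
Target regions of 75 nt (bars, thicker with more reads) of the 14 interactions at 6 genes that shared a seed match start with another miRNA, against the distance from that start (x axis, nt, 5′ to 3′ of the transcript). The left end of a bar is the first nucleotide of the region; the regions of PROX1 begin 65, 40 and 29 nt before the shared match.

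Of 22 pairs of a miRNA and one of 11 listed genes that are known targets from general knowledge, 3 were in the table, at 2 genes. They were PPARG with miR-130a-3p, the 8mer in the 3′-UTR, and pairs of NCOA3 in its 3′-UTR. Those were with miR-17-5p, a 7mer-m8, and with miR-106b-5p, a mismatched 7mer-A1. No background share was computed for such pairs, and a pair whose miRNA was absent from the table could not be found. Pairs with no interaction included PPARA with miR-21-5p, HNF4A with miR-24-3p and miR-34a-5p, NR3C1 with miR-18a-5p and PROX1 with miR-181a-5p, and each of these is a count of 0 with the limit given above.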

How the data were processed

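The authors processed 31 AGO-CLIP and CLEAR-CLIP libraries of Huh-7.5 cells. According to the submitters' processing notes and the methods, CASAVA 1.8.2 was used, miRNAs were sought in reads with Bowtie (version not given in the sources used here; up to 1 seed mismatch), fragments of at least 18 nt were mapped to single places in hg18, PCR duplicates were collapsed and overlapping reads of 1 miRNA merged. The authors deposited 1 pooled table. Its read number is a count per interaction that was not normalized, its minimum free energy is a deposited RNAhybrid score, and per the methods seed pairing was forced in the prediction where a seed match or variant was found, although some deposited duplexes with a listed variant, such as miR-21-5p at NR1H4, pair no seed base. The table does not name the library of an entry, so no library depth could be set beside an interaction.

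Each interaction counted once. Shares carry 95% Wilson intervals (counting error only). Map positions start at miRNA position 2, and G:U counted as paired. Genes described in detail had at least 5 interactions. Single interactions were those with at least 2 reads, strong 3′-UTR seed matches, the lowest free energy per role group, and overlaps, and the 10 most frequent miRNAs were named. The members and lists were chosen from general knowledge with earlier results of these data known. Alternatives changed the unit counted, read support, duplicates, THRB, gene matching, region labels and windows. Of 85 miRNAs, 71 matched 1 RefSeq mature sequence by name, whose length fitted the duplex map in 207 of 207 interactions and whose base fitted the listed mismatch in 56 of 56. Summary functions were tested on simulated data. Python 3.11.15, numpy, pandas and matplotlib were used.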

Additional observations from a re-analysis of the deposited data

How the results depend on the processing

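Of 46 alternative values for 7 shares, 35 stayed within the interval of the share as reported and 11 did not. With only interactions of at least 2 reads (14 at the listed genes) the canonical share was 57.1%, the 3′-UTR share 42.9%, the intron share 42.9%, the share of canonical matches near the ligation point 50.0%, the class 4 share 14.3% and the share of miR-17-5p 14.3%. The 50.0% rests on 4 of 8 matches. Only the canonical share was also computed over all interactions with 2 or more reads (46.7%). Whether the other shares shift the same way in the whole table was not tested. The canonical share at the listed genes was 47.6% in the 3′-UTR alone and 25.6% without the offset 6mer. In the first 25 of 75 positions 59.3% of canonical matches began. Without THRB the listed genes held 0.627% of all interactions, against 0.776% with it, and they held 1.16% of the interactions with a gene symbol, a total chosen after seeing the data. Matching by Entrez gene ID gave the same 254 interactions. No paired analysis was possible because the table does not name libraries, and for the same reason no library could be left out. With 240 of 254 interactions on a single read, counts of single genes are limited by depth.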
